A study of Mus musculus with 24 samples.

Results

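The genes of respiratory complexes II to V described here are the nuclear genes for the part of the mitochondrial electron transport chain that carries electrons from succinate and from complex I to oxygen, and for the ATP synthase. Members were chosen by symbol, from the Sdh, Uqcr, Cyc1, Cox4 to Cox8 and Atp5 names of the probe panel. There were 48 among 19962 targets, of which 4 belonged to complex II, 9 to complex III, 18 to complex IV and 17 to complex V. Regions of mouse brain were profiled on the GeoMx platform, in which barcoded probes bound to RNA in a tissue section are released from a chosen region by light and counted by sequencing. The sections were labelled for Tmem119 and Iba-1, the series title places the animals after subarachnoid haemorrhage (SAH) and names the tyrosine kinase Lyn in macrophages, and 24 regions fell into 6 groups of 4.

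The groups were WT, MG-cKO and BMM-cKO, each in males and in females. The design text also names the WT group as WT-SAH, and Sham regions that it mentions were not analysed here. The meaning of MG and BMM, the deleting transgene, the ages and the times after SAH are not given in the sources used here. The labels give the cell type as macrophage but tie no region to an animal, and the design text speaks of 4 regions for each brain slice. The p-values below therefore measure the spread between regions, and they are too small where regions share an animal. Since each group has 4 regions, a group may be 1 slice of 1 animal. Genotype could then not be told apart from animal or slice. Males were on scan 2 and females on scan 3, so sex and scan cannot be told apart. The titles of the male regions also carry a plus sign after TMEM119 that those of the female regions lack. What this sign stands for cannot be told apart from sex either. All 12 male regions and 1 WT female region (region 1) were on 1 library plate and the other 11 female regions on another.

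Succinate dehydrogenase (complex II) links the tricarboxylic acid cycle to the chain, the cytochrome bc1 complex (III) and cytochrome c oxidase (IV) pump protons as they pass electrons on, and ATP synthase (V) uses the proton gradient to make ATP. Neurons are among the heaviest users of this machinery, because ion pumping and synaptic transmission consume much of the ATP of the brain. Several complex IV subunits exist as a general form and a form restricted to heart and skeletal muscle, lung or testis. In bulk samples such as these regions, a lower level can come from fewer cells of a type or from less RNA per cell, and the 2 cannot be told apart.

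Levels are given as the ratio of a target to the negative probe value of the same region, so that a ratio near 1 is background. This value comes from control probes that match no mouse transcript. Recovered tags numbered 1839154 to 10779960 per region, and the median member had 128 to 682 tags, a counting error of 3.83% to 8.84%. The tags rest on whole multiples of 1 step in each region's deposited values, and the formal check of this recovery was not passed, so these numbers are estimates. BMM-cKO males had 6672788 to 10779960 tags, and of the other regions only BMM-cKO-females region 3, at 7014700, lay in that range. Levels of different targets depend on their probes as well as on their RNA and were not compared in size. Lyn itself lay at 0.878 to 1.22 in the 24 regions, at background, so it gave no check of the genotype labels. The neuron list had 14 of 20 markers above 2 on average, whereas the microglia list had 1 of 12 (Aif1, which encodes Iba-1) and the list for infiltrating monocytes and macrophages 0 of 9. The microglial gene Tmem119 averaged 0.752 to 0.871 in the 6 groups, at background, while Aif1 averaged 1.38 to 2.54.

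One region stood apart. BMM-cKO-females region 3 had a ratio of 361 for Ttr, the transthyretin gene that marks choroid plexus epithelium, where the other 3 regions of its group lay between 1.06 and 1.35. Its 5 choroid plexus markers summed to 386, against 4.79 to 10 in the other 23 regions. It had the highest level in its group for 43 of the 48 members and the highest of all 24 regions for 18. Its neuron markers summed to 36.4, the lowest of its group. Counts of called members and named member changes that involve BMM-cKO females are therefore given with and without it.

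The 250 bases before the gene start are shown for 3 members that the results turn on: Sdha, a complex II gene that was called in each comparison with WT except that of MG-cKO males, Atp5b, which had the largest changes, and Uqcrh, a well detected gene that was not called against WT. They were picked after their values were seen. All 48 symbols matched the RefSeq gene table, and 36 members had a promoter entry there (build GRCm38.p6, windows of 300 bases). Capitals mark matches, on either strand, to the 10-base core motif of NRF1 with 1 position free (NRF1 is a factor that acts on many respiratory genes), or to CCGGAAGT, the core of sites for ETS factors such as GABP. Coordinates follow in the text.
Sdha: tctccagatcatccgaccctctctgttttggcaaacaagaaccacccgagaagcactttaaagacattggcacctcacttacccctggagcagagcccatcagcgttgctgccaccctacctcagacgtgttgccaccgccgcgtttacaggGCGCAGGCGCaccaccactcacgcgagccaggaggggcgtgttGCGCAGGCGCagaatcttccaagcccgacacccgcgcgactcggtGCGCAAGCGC
Atp5b: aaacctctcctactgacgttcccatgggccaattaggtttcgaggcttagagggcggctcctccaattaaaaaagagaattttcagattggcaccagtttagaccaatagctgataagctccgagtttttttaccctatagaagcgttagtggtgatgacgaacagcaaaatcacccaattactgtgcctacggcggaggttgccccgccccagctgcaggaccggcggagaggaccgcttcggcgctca
Uqcrh: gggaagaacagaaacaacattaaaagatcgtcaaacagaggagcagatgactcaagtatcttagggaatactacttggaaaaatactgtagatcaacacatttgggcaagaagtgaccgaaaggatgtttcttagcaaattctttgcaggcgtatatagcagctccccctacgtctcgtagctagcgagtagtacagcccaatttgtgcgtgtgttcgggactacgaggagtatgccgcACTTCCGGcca

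The Sdha stretch (chr13:74350241-74350490, minus strand) held 3 matches to the NRF1 motif, starting 98, 55 and 10 bases before the gene start. The Uqcrh stretch (chr4:116075071-116075320, minus strand) held 1 match to CCGGAAGT, read on the opposite strand, 11 bases before the start. The Atp5b stretch (chr10:128083057-128083306, plus strand) held neither motif. The NRF1 motif occurred in the windows of 10 of 36 members (27.8%) against 5.19% of 27025 genes and 7.82% of the genes on the panel. The members were Sdha, Sdhd, Uqcrc1, Cox6a1, Atp5c1, Atp5g2, Atp5g3, Atp5h, Atp5k and Atp5o. Its strict form has no free position, and all its matches are also matches of the looser form. The strict form occurred in 4 members (11.1%) against 1.07% of genes and 1.61% of those on the panel. CCGGAAGT occurred in 4 members (11.1%) against 4.31% of genes and 6.09% of those on the panel. The 11-base motif of the factor YY1 occurred in 0 against 1.17% and 1.78%. These are matches of letters only.

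Over all 24 regions, 13 members averaged above 2 times the negative probe, 18 between 1.5 and 2, 12 between 1 and 1.5, and 5 below 1. Of all targets, 3.14% averaged above 2. The filter on low values passed 41 members. The 7 that did not pass were Uqcrc1, Uqcr10, Cox7c, Cox4i2, Cox6a2, Cox7a1 and Cox8b. Since the filter used the mean over all regions, a member could pass through 1 high group, and counts over the 41 are descriptions of those tested.

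Sdha encodes the flavoprotein of complex II that oxidises succinate. Its ratio was 1.81, 2.38, 2.37 and 1.78 in the 4 WT male regions, 1.66, 2.07, 1.96 and 2.06 in MG-cKO males and 1.22, 1.46, 1.33 and 1.32 in BMM-cKO males. In females it was 1.82, 1.31, 1.81 and 1.35 in WT, 2.96, 2.34, 3.21 and 3.31 in MG-cKO and 2.05, 1.9, 2.68 and 2.34 in BMM-cKO regions. Every BMM-cKO male region was below every WT male region, and all 4 MG-cKO and all 4 BMM-cKO female regions were above all WT female regions. Sdhb encodes the iron-sulfur subunit. It had ratios of 1.58, 2.2, 1.87 and 1.79 in WT, 1.58, 1.74, 1.73 and 1.79 in MG-cKO and 1.21, 1.24, 1.34 and 1.37 in BMM-cKO males. The female ratios were 1.84, 1.49, 1.38 and 1.41 in WT, 2.38, 2.01, 2.87 and 2.18 in MG-cKO and 1.69, 1.7, 1.97 and 1.9 in BMM-cKO regions. BMM-cKO males again lay below all WT males and MG-cKO females above all WT females, but WT and BMM-cKO females overlapped. Sdhd, a membrane anchor of the complex, lay at 1.4, 1.73, 1.81 and 1.6 in WT males, 1.38, 1.33, 1.37 and 1.53 in MG-cKO males and 1.1, 1.1, 1.03 and 1.12 in BMM-cKO males. Female ratios of Sdhd were 1.21, 1.18, 1.28 and 1.32 in WT, 1.87, 1.31, 2.12 and 1.92 in MG-cKO and 1.35, 1.35, 1.98 and 1.56 in BMM-cKO. BMM-cKO males were again lowest, close to background, while MG-cKO-females region 2 fell among the WT female values and all 4 BMM-cKO female regions lay above them. Sdhc, the other anchor, averaged 0.955 to 1.27 in the 6 groups.

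Complex III members did not all share this order. Uqcrh encodes the hinge protein, which assists electron transfer from cytochrome c1 to cytochrome c. It was measured at 2.13, 2.7, 2.54 and 2.39 in WT males, 2.01, 2.7, 2.51 and 2.65 in MG-cKO males and 2.64, 2.74, 2.72 and 2.58 in BMM-cKO males. In females the ratios were 3.43, 2.74, 3.08 and 2.95 in WT, 3.72, 3.56, 4.18 and 4.13 in MG-cKO and 2.67, 2.7, 5.04 and 3.26 in BMM-cKO. Unlike Sdha, the BMM-cKO males were not below the WT males, and region 3 of BMM-cKO females was the highest of all 24. Uqcr11, a small subunit, had 1.35, 1.68, 2.05 and 1.51 in WT, 1.22, 1.56, 1.69 and 1.51 in MG-cKO and 1.3, 1.22, 1.15 and 1.23 in BMM-cKO males. For females the values were 1.97, 1.8, 1.89 and 1.78 in WT, 3.08, 2.17, 3.09 and 2.81 in MG-cKO and 1.86, 1.56, 4.35 and 2.36 in BMM-cKO. Here BMM-cKO males were below every WT male region, and MG-cKO females above every WT female region. Uqcrb, which binds ubiquinone, had 1.36, 1.59, 1.78 and 1.37 in WT, 1.3, 1.52, 1.61 and 1.66 in MG-cKO and 1.6, 1.69, 1.63 and 1.69 in BMM-cKO males. In females it had 1.71, 1.61, 1.63 and 1.64 in WT, 1.96, 1.73, 2.15 and 2.17 in MG-cKO and 1.46, 1.8, 2.72 and 1.78 in BMM-cKO. The 3 male groups overlapped. The core subunit gene Uqcrc1 stayed at or below background, with group means of 0.467 to 0.848, and its highest region reached 1.01.

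Cox4i1 encodes a regulatory subunit of complex IV in its general form. Its ratios were 2.7, 3.73, 4.3 and 2.79 in WT males, 2.42, 3.05, 3.35 and 3.71 in MG-cKO males and 1.97, 2.03, 2.1 and 2.25 in BMM-cKO males. The female ratios were 3.98, 3.09, 3.21 and 2.92 in WT, 6.89, 5, 7.27 and 6.56 in MG-cKO and 3.54, 3.11, 7.76 and 4.6 in BMM-cKO. BMM-cKO males lay below all WT males, MG-cKO females above all WT females, and the single highest value was that of BMM-cKO-females region 3. Cox6a1, the general form of subunit VIa, gave 2.43, 2.67, 3.21 and 2.75 in WT, 2.13, 2.96, 3.09 and 3.31 in MG-cKO and 1.69, 1.81, 1.54 and 1.76 in BMM-cKO males. It gave 3.4, 3.25, 2.99 and 2.78 in WT, 5.75, 4.85, 6.53 and 6.32 in MG-cKO and 3.44, 2.74, 5.67 and 3.57 in BMM-cKO females. The same 2 separations from WT held. Cox5b, a zinc-binding subunit, gave 2.41, 3.15, 3.29 and 2.58 in WT, 2.08, 2.65, 2.74 and 2.83 in MG-cKO and 1.89, 1.94, 1.86 and 1.92 in BMM-cKO males. The female regions of Cox5b gave 2.94, 2.53, 2.59 and 2.3 in WT, 4.05, 3.29, 4.71 and 4.43 in MG-cKO and 2.49, 2.91, 3.99 and 3.26 in BMM-cKO. These groups separated from WT in the same way.

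Atp5b and Atp5a1 encode the catalytic beta and the alpha subunit of the ATP synthase head, and Atp5g3 is 1 of 3 genes (with Atp5g1 and Atp5g2) for the c subunit of the membrane rotor. Atp5b had ratios of 2.73, 3.57, 3.95 and 2.88 in WT males, 2.35, 3.19, 3.35 and 3.24 in MG-cKO males and 1.7, 1.97, 1.7 and 2.01 in BMM-cKO males. In females they were 3.92, 2.22, 2.97 and 2.58 in WT, 7.47, 4.93, 10.1 and 9.08 in MG-cKO and 3.52, 3.65, 7.33 and 4.07 in BMM-cKO. The group means ran from 1.85 ± 0.166 in BMM-cKO males to 7.89 ± 2.25 in MG-cKO females (SD, n = 4), and neither of these groups overlapped WT of its sex. Atp5a1 was measured at 2.33, 2.81, 3.32 and 2.59 in WT, 1.88, 2.98, 3.09 and 2.56 in MG-cKO and 1.7, 1.94, 1.87 and 1.87 in BMM-cKO males. Its female values were 3.1, 2.23, 2.34 and 2.41 in WT, 5.3, 3.76, 6.84 and 5.98 in MG-cKO and 2.78, 3.06, 5.4 and 3.55 in BMM-cKO. The order of the groups matched that of Atp5b. Atp5g3 was measured at 1.94, 2.35, 2.55 and 2.01 in WT, 1.62, 2.34, 2.35 and 2.15 in MG-cKO and 1.57, 1.57, 1.59 and 1.52 in BMM-cKO males. Its female values were 2.51, 1.65, 2.17 and 1.8 in WT, 3.51, 2.73, 3.82 and 3.72 in MG-cKO and 2.39, 2.34, 4.67 and 2.75 in BMM-cKO. BMM-cKO males and MG-cKO females again stood clear of WT of their sex, and the highest region of all 24 was BMM-cKO-females region 3. The other 14 complex V members had group means of 0.988 to 2.97.

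**Figure D1:**
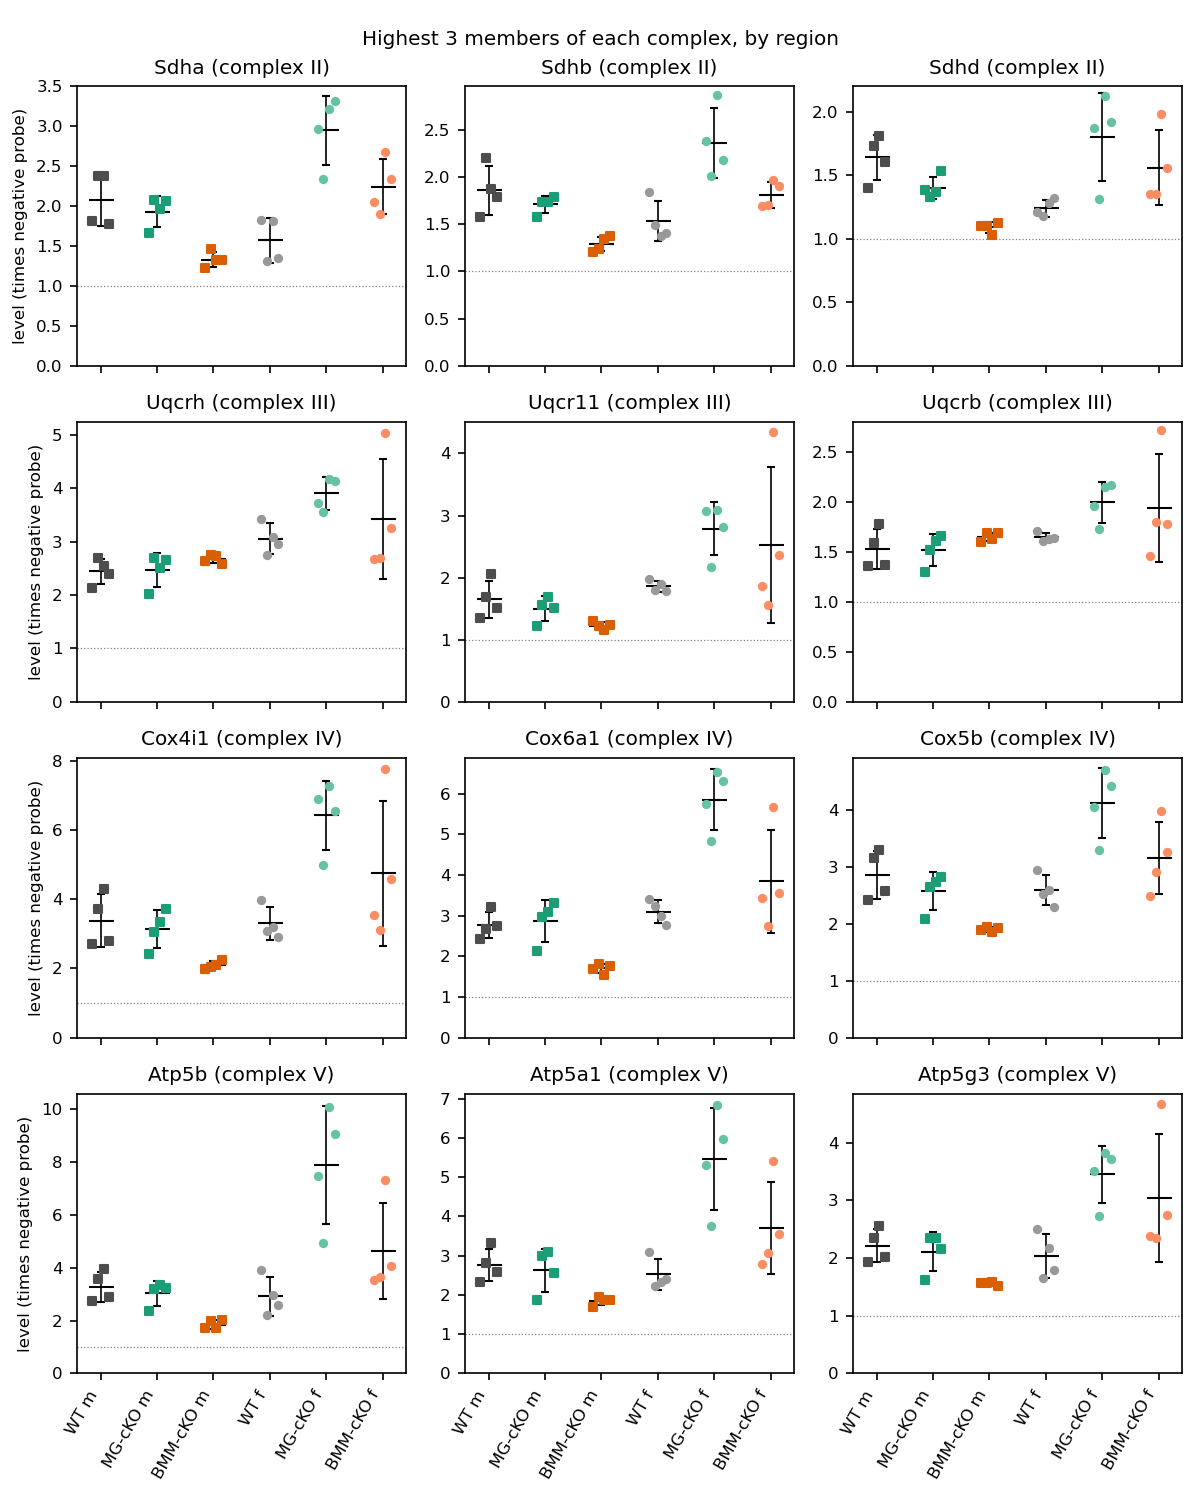
Level (ratio to the negative probe, dotted line at 1) of the 3 members with the highest mean in each complex, with 1 point per region, bars for the group mean and whiskers for the SD of 4 regions (m, males; f, females). MG-cKO females have the highest group mean and BMM-cKO males the lowest for complexes II, IV and V, with Atp5b between 1.7 in BMM-cKO males and 10.1 in MG-cKO females, and 1 BMM-cKO female region stands above the rest of its group.

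The spread within groups differed. Over the 41 tested members, the median coefficient of variation was 4.82% in BMM-cKO males, 22.9% in BMM-cKO females and 9.67% to 14.7% in the other 4 groups. BMM-cKO females are the group that holds the region with choroid plexus RNA. BMM-cKO males had 6672788 to 10779960 tags, and their median member ratio averaged 1.24, the lowest of all groups. The part of depth and of nearness to background in the spread was not tested. The summed ratio of the 48 members was 72.4 to 92.4 in WT males, 67.8 to 80.9 in MG-cKO males and 60.7 to 63.6 in BMM-cKO males. In females it was 70.4 to 85.7 in WT, 97.3 to 136 in MG-cKO and 80.9 to 134 in BMM-cKO. Without region 3 the BMM-cKO female sums were 80.9 to 94.2.

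The probes of the tissue-restricted isoforms gave signal at or near background. Cox4i2 (lung) averaged 1.02, and Cox6a2 and Cox7a1 (heart and muscle) averaged 1.02 and 0.990. The testis forms Cox6b2, Cox7b2 and Cox8c averaged 1.26, 1.24 and 1.08. Of their general forms, Cox4i1 averaged 3.85, Cox6a1 3.36, Cox8a 2.84, Cox7a2 1.93, Cox7b 1.86 and Cox6b1 1.6, each from a probe of its own, so that no order of the isoforms follows from these values. Cox8b (heart and muscle) averaged 0.847. No restricted isoform reached 2 in any region, and the highest value among them was 1.95 for Cox6b2. The general subunit genes Cox7c, Uqcr10 and Uqcrc1 also averaged 0.964, 0.991 and 0.633.

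**Figure D2:**
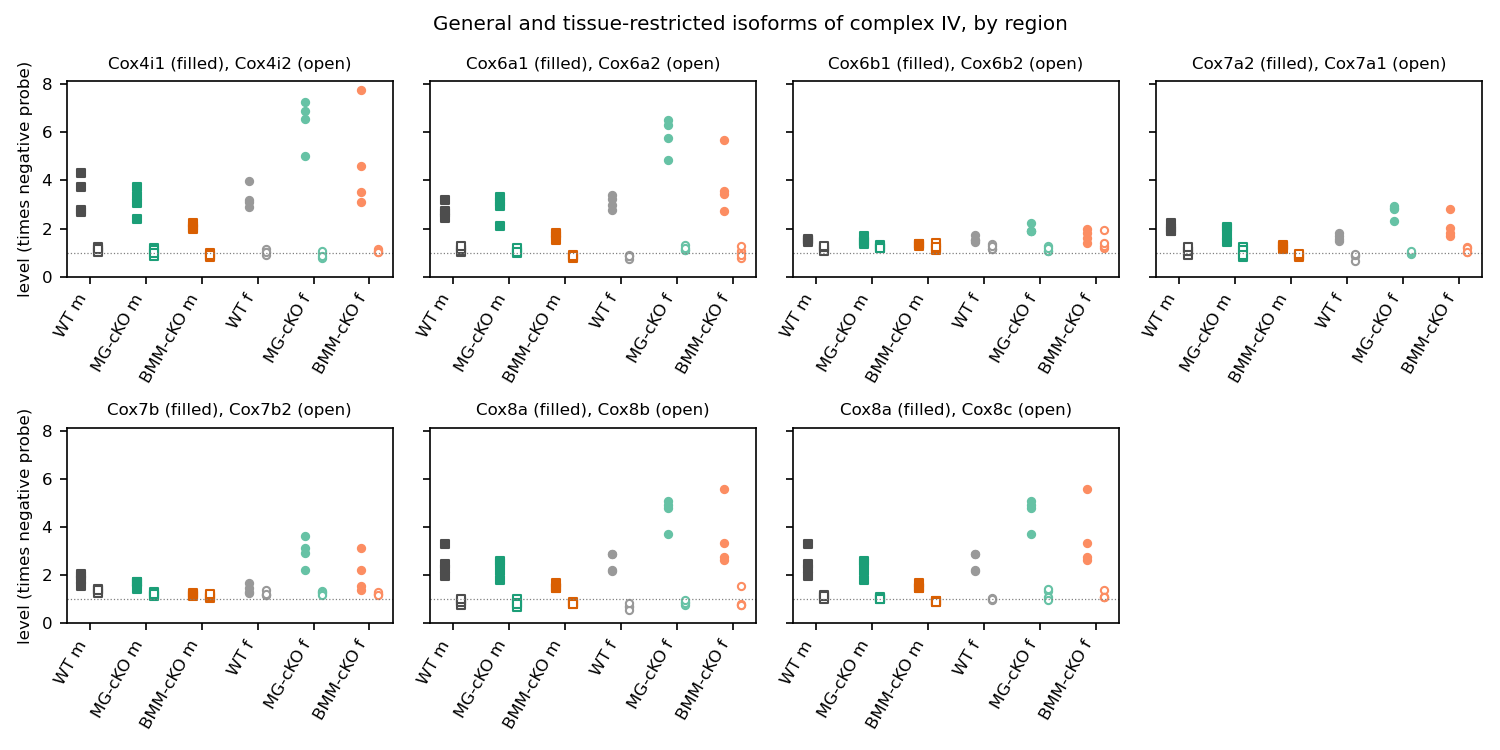
Ratio to the negative probe (dotted line at 1) of general complex IV isoforms (filled) and their tissue-restricted counterparts (open), with 1 point per region and groups as labelled (m, males; f, females). Each isoform has a probe of its own and is to be read against the dotted line and across the groups, not against the other isoform. The restricted forms stay below 2 in all 24 regions.

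MG-cKO against WT in females asked what the MG-cKO genotype was accompanied by in females, and here the respiratory genes were higher. Of the 41 tested members, 28 rose and 0 fell (limma, Benjamini-Hochberg adjusted p under 0.05), where 29.8% of all 9981 tested targets were called, 17.9% higher and 11.9% lower. The median member changed by 0.45 on the log2 scale, against -0.02 for all targets. The shares of all targets, here and below, were not matched to the members in level. Of the 48 members 13 averaged above 2 times the negative probe, and of all targets 3.14% did. Atp5b rose most, by 1.29 ± 0.20 (log2 ± SE, 2.44-fold, adjusted p = 1.16e-05). Next came Cox5a, a matrix-side subunit of complex IV, at 0.99 ± 0.12, then Atp5a1 at 0.97 ± 0.16 and Cox7b at 0.92 ± 0.15. Atp5d, a subunit of the central stalk, rose by 0.89 ± 0.15. Cox4i1 rose by 0.83 ± 0.19, Cox6a1 by 0.79 ± 0.15 and Sdha by 0.79 ± 0.11, the last with an adjusted p of 5.42e-06.

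The rise covered 3 of 4 tested members of complex II, 3 of 7 of complex III (Cyc1, Uqcrc2 and Uqcr11), 10 of 13 of complex IV and 12 of 17 of complex V. The complex IV members that did not pass the test were the 3 restricted isoforms Cox6b2, Cox7b2 and Cox8c. Among the better detected genes, Uqcrh was not called, at 0.23 ± 0.13 (adjusted p = 0.193), although its MG-cKO ratios lay above its WT ratios. The ratio of the median target itself was 1.06 to 1.12 in MG-cKO and 1.01 to 1.04 in WT females, and the log2 changes are relative to that median. On the ratio scale, all 4 MG-cKO regions lay above all 4 WT regions for 33 of 48 members, and for 16.9% of all targets. The members below the filter were tested without it: Uqcrc1 (0.73), Cox6a2 (0.38) and Uqcr10 (0.36) passed, all with ratios near or under background. Quantile normalization called 15 members in place of 28. It did not call Cox4i1, at 0.18, or Cox6a1, at 0.16 (limma adjusted p = 0.27 and 0.335).

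Neuron markers moved with these genes. Their sum over 20 markers was 96.9 to 158 in MG-cKO females and 38.1 to 54.9 in WT females, and 16 of 20 rose and 1 fell. Snap25, a synaptic vesicle fusion protein, averaged 25.4 ± 6.59 against 4.55 ± 1.48 (SD, n = 4). The 10 striatal markers summed to 19.2 to 37.1 in WT against 12.9 to 13.7 in MG-cKO females, and all 7 tested fell, as did 9 of 10 tested microglia markers. Astrocyte markers summed to 35.7 to 40.3 in MG-cKO and 17 to 24.8 in WT females, with 4 of 10 higher (Slc1a2, a glutamate transporter, by 1.10), and the haemoglobin gene Hba-a1 rose by 2.16. The part of these cell types in the rise of the respiratory genes was not tested. MG-cKO-females region 2 was the lowest of its group for 42 of 48 members and also had the lowest neuron sum of its group, 96.9.

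In males the same comparison called no member. For MG-cKO against WT, 0 of 41 rose and 0 fell, the median member changed by -0.07, and 1 member, Atp5j2, had an unadjusted p under 0.05 (limma). Of all targets 0.481% were called, 0.441% higher and 0.0401% lower. Quantile normalization called 1 member higher. Atp5b was at -0.10 ± 0.20, Cox4i1 at -0.08 ± 0.19 and Sdha at -0.08 ± 0.11. The neuron sum was 37.1 to 53.8 in MG-cKO and 42.9 to 57 in WT males.

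BMM-cKO against WT in males went the other way. Of 41 tested members, 25 fell and 1 rose, where 53.6% of all targets were called, 25.7% lower and 27.8% higher (limma). The median member changed by -0.38. These directions hold relative to the median target: on the deposited scale, where all targets of this comparison shift by 1.49, all 41 members were higher. Atp5b fell by 0.79 ± 0.20 on the log2 scale (1.73-fold lower, adjusted p = 0.00127). Cox7a2l, a factor that helps complexes III and IV assemble into supercomplexes, fell by 0.67 ± 0.11, with an adjusted p of 7.63e-06. Cox6a1 fell by 0.67 ± 0.15, Cox8a fell by 0.66 ± 0.16 and Cox7a2 fell by 0.65 ± 0.11. Cox4i1 fell by 0.64 ± 0.19, Sdha fell by 0.61 ± 0.11 and Atp5l, a subunit at the dimer interface of the synthase, fell by 0.59 ± 0.14.

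All 4 complex II members fell, and 10 of 13 of complex IV did, among them the testis forms Cox7b2 and Cox8c, whose levels are near background. Complex V had 10 lower and 1 higher of 17. The exception was Atp5j2, the f subunit of the membrane part, which rose by 0.23 ± 0.09 (adjusted p = 0.0421), against the direction of Atp5b in the same complex. Its call was lost when any BMM-cKO male region or WT male region 2 or 4 was left out, with limma adjusted p of 0.0611 to 0.139. In complex III only Cyc1, the cytochrome c1 gene, fell among the 7 tested, by 0.42 on the log2 scale. Uqcrh, Uqcrb and Uqcrfs1, the Rieske protein, had values of 0.16, 0.15 and 0.17 and were not called. Between complexes no difference was tested. On the ratio scale, every BMM-cKO region lay below every WT region for 33 of 48 members and for 31.1% of all targets. Without the filter, Uqcr10 (-0.57), Uqcrc1 (-0.45), Cox7c (-0.41), Cox6a2 (-0.33) and Cox4i2 (-0.24) were also called.

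The calls were also counted by level in WT males, a difference that was not tested. The same WT male regions were the reference of the comparison, and low members had little room to fall. The counts therefore cannot show a dependence on level. In MG-cKO against WT females the median change was 0.31, 0.42 and 0.76 for members under 1.5, from 1.5 to 2 and above 2 in WT females. Of the 12 tested members above 2 in WT males, 11 fell, of the 16 between 1.5 and 2, 9 fell, and of the 13 under 1.5, 5 fell and 1 rose. The neuron sum was 28.9 to 32.3 in BMM-cKO and 42.9 to 57 in WT males, with 12 of 20 markers lower. Of the other lists, 4 of 10 astrocyte, 3 of 9 oligodendrocyte and 6 of 10 microglia markers fell, while 2 microglia and 3 of 8 endothelium markers rose. Tags were 6672788 to 10779960 in BMM-cKO and 1839154 to 4589359 in WT males. The part of cell types or depth in the lower members was not tested.

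**Figure D3:**
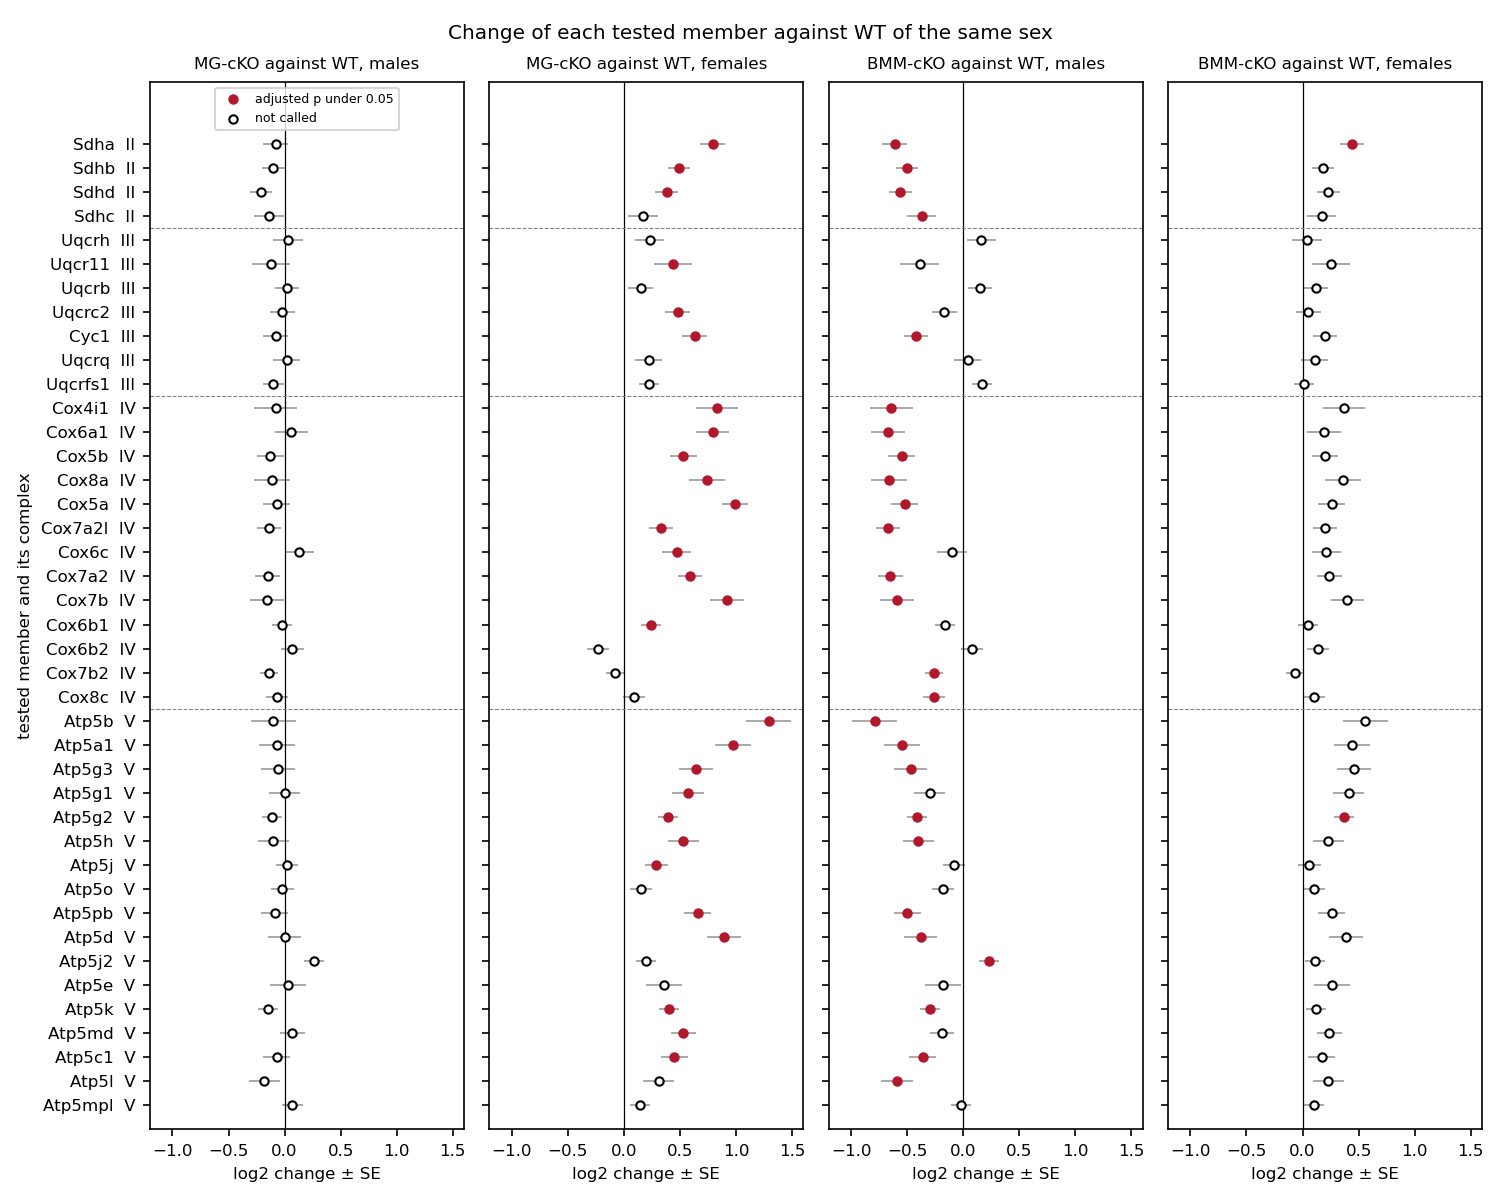
Log2 change relative to the median target (± SE, limma) of the 41 tested members against WT of the same sex, by complex, with filled points for adjusted p under 0.05. Values run up to 1.29 for Atp5b in MG-cKO females and down to -0.79 for Atp5b in BMM-cKO males, while MG-cKO males have no filled point and BMM-cKO females 2.

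BMM-cKO against WT in females called 2 members, both higher, where 2.34% of all targets were called, 1.35% higher and 0.992% lower (limma). They were Sdha (0.44 ± 0.11, adjusted p = 0.0362) and Atp5g2 (0.37 ± 0.09, adjusted p = 0.0261), and the median member was at 0.20. Without region 3, 1 member was called, Atp5g2, at 0.32 (limma adjusted p = 0.0483), and Sdha was at 0.36 with an adjusted p of 0.0704. The mean ratio of Atp5b was 4.64 ± 1.81 (n = 4) with that region and 3.75 ± 0.291 (n = 3) without it. For Cox4i1 the corresponding means were 4.75 ± 2.1 and 3.75 ± 0.763. Leaving out any 1 region gave 0 to 4 called members, with 0 without WT region 2 or 4, 1 without WT region 1 or BMM-cKO region 3 or 4, and 4 without BMM-cKO region 2. With no filter neither was called (limma adjusted p = 0.063 and 0.0553 for Sdha and Atp5g2), nor with only these groups fitted (0.238 and 0.177), and on the deposited scale, where all targets shift by 0.64, all 41 members were higher. Neuron sums were 38.1 to 54.9 in WT and 52.2 to 65.9 in the BMM-cKO regions other than region 3. Of the striatal markers 6 of 7 fell, with a median of -0.83, and 2 of 10 microglia markers fell. Their part in the calls was not tested.

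**Figure D4:**
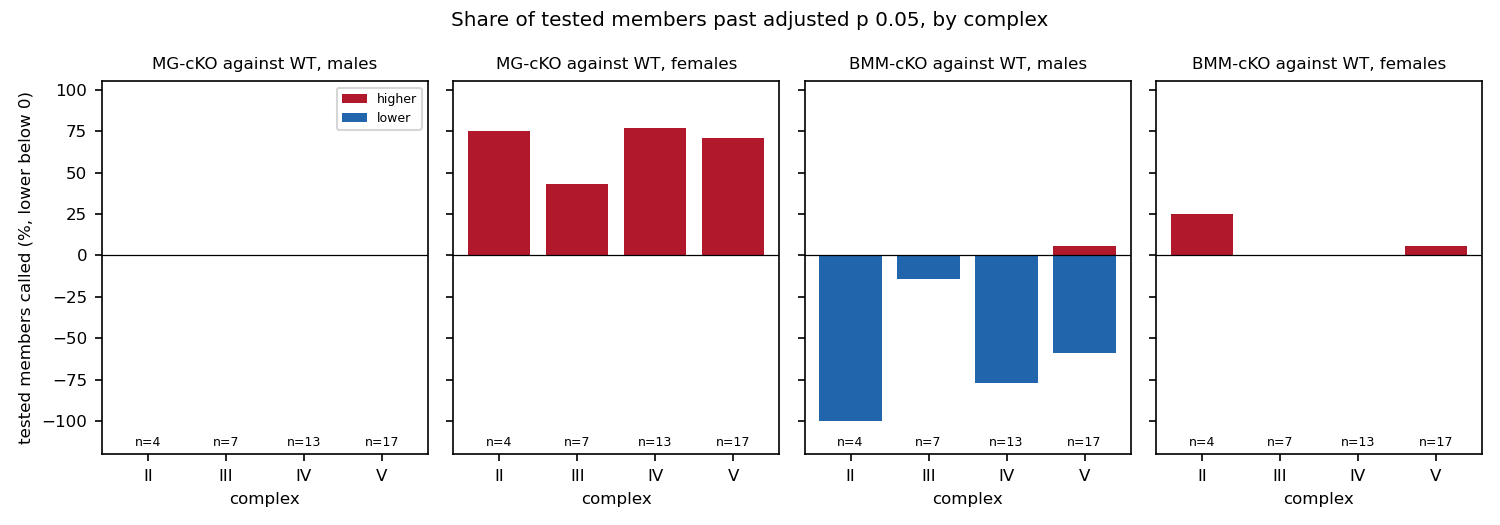
Share of the tested members of each complex that rose (above 0) or fell (below 0) against WT of the same sex relative to the median target at a limma adjusted p under 0.05, with the number tested under each bar. Complex III has the smallest share of calls in MG-cKO females (3 of 7) and in BMM-cKO males (1 of 7).

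The difference between the sexes in each genotype effect was tested as an interaction. For MG-cKO, 25 of 41 members were lower in the male than in the female effect and 0 higher, with 27.1% of all targets called, 14.2% lower and 12.8% higher (limma). Atp5b differed by -1.38 ± 0.28 on the log2 scale (adjusted p = 0.000719), Cox7b by -1.08 ± 0.21 and Cox5a by -1.07 ± 0.16. Atp5a1 differed by -1.04, Cox4i1 by -0.92, Atp5d by -0.89, Sdha by -0.87 and Cox8a by -0.85. Quantile normalization left 14 lower. It did not call Cox4i1, at -0.25, or Cox8a, at -0.34 (limma adjusted p = 0.272 and 0.125). In the same interaction 15 of 20 neuron markers were lower (median -1.12), and all 7 striatal (median 1.28) and 6 of 10 microglia markers were higher. For BMM-cKO, 27 were lower and 0 higher, where 45.7% of all targets were called, 21.5% lower and 24.2% higher. Atp5b differed by -1.35 ± 0.28 (adjusted p = 0.000322) and Sdha by -1.05 ± 0.16. Cox8a, Cox4i1 and Cox7b differed by -1.02, -1.01 and -0.99. Atp5a1, Atp5g3 and Cox7a2 differed by -0.99, -0.93 and -0.90. Without region 3 of BMM-cKO females the count was 25, and Atp5b differed by -1.12. Sdha was then at -0.97, Cox8a and Atp5a1 at -0.8, Cox7b at -0.78, Cox4i1 and Cox7a2 at -0.76 and Atp5g3 at -0.71. On the deposited scale, where all targets shift by 0.86, 0 were lower and 16 higher. Here 7 of 20 neuron and 4 of 10 astrocyte markers were lower and 5 of 7 striatal markers higher. The part of these markers in the interactions was not tested. Both interactions use the same WT regions, and scan differs with sex.

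Between the knockouts, 18 of 41 members were higher and 1 lower in MG-cKO than in BMM-cKO males, with 38.5% of all targets called, 18.1% higher and 20.4% lower (limma). On the deposited scale, where all targets shift by -1.18, all 41 were lower. Cox6a1 (0.73 ± 0.15), Atp5b (0.70 ± 0.20) and Cox4i1 (0.56 ± 0.19) led. Cox8a, Cox7a2l and Sdha stood at 0.55, 0.53 and 0.52, and Cox7a2 and Atp5a1 at 0.50 and 0.48. Uqcrfs1 was the lower one, at -0.28 ± 0.09, while Cyc1 of the same complex was higher, at 0.34. Of the neuron markers 7 of 20 were higher, and their part was not tested. In females 13 were higher and 1 lower, with 14.6% of all targets called, 11.0% higher and 3.54% lower. Atp5b (0.73 ± 0.20), Cox5a (0.73 ± 0.12) and Cox6a1 (0.60 ± 0.15) led, followed by Atp5a1 at 0.53, Cox7b at 0.52 and Atp5d at 0.50. Cyc1 and Uqcrc2, a core subunit of complex III, were at 0.43 and 0.42, and the testis form Cox6b2 was the lower one at -0.36 ± 0.10. Without region 3 of BMM-cKO females the count was 27 higher and 0 lower, Atp5b was at 0.96, and Cox6b2 at -0.23 (limma adjusted p = 0.0770). Cox6a1 was then at 0.79, Cox5a at 0.78, Atp5d at 0.74, Cox7b at 0.73, Atp5a1 at 0.71, Cyc1 at 0.54 and Uqcrc2 at 0.5. Without BMM-cKO region 2 or MG-cKO region 3 the higher count was 4, without BMM-cKO region 1 or MG-cKO region 4 it was 5, and without MG-cKO region 1 it was 8. The higher count was 2 after quantile normalization and 1 with only these groups fitted. After subtraction of the negative probe, which tested only members averaging above 1.5 times it, the higher count was 3. On the deposited scale, where all targets shift by -0.33, 1 was higher and 9 were lower. Neuron sums were 96.9 to 158 against 36.4 to 65.9.

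Male and female regions were compared within each genotype. In WT, 7 of 41 members were higher and 1 lower in males, where 39.5% of all targets were called, 16.3% higher and 23.2% lower (limma). The higher ones were all 4 complex II genes, Sdha (0.42 ± 0.11), Sdhd (0.40 ± 0.10), Sdhc (0.37 ± 0.13) and Sdhb (0.30 ± 0.10), with Cox7b at 0.38, Cox7a2 at 0.30 and Atp5g2 at 0.25. Of the striatal markers, all 7 were lower in WT males (median -0.85), while 6 of 10 microglia and 5 of 10 astrocyte markers were higher and 1 of each lower. Atp5j2 was lower in males, at -0.29 ± 0.09, and at 0.05 on the deposited scale, which shifts all targets by 0.34. The share of members called higher in WT was near that of all targets. Of the 8 calls, only those of Sdha and Sdhd held whichever region was left out. With no filter Sdhc and Sdhb were not called (limma adjusted p = 0.0741 and 0.0936). Without male region 2 or female region 2 or 4 the higher count was 3, and without male region 4 the lower count was 0. In MG-cKO, 30 members were lower in males and 0 higher (13.7% and 6.06% of all targets, 19.7% in all), led by Atp5b (-1.18 ± 0.20), Atp5a1 (-0.89 ± 0.16) and Cox6a1 (-0.88 ± 0.15). Cox4i1, Cox8a, Cox5a, Atp5d and Uqcr11 were at -0.88, -0.87, -0.84, -0.76 and -0.73. The lower count was 7 after quantile normalization and 9 on the deposited scale, where 5 were higher. After subtraction of the negative probe, which tested only members averaging above 1.5 times it, the lower count was 12. Quantile normalization did not call Atp5a1 (-0.27), Cox4i1 (-0.22), Cox6a1 (-0.23) or Cox8a (-0.3). Of the neuron markers 14 of 20 were lower in MG-cKO males, and 9 of 10 microglia markers were higher. In BMM-cKO, 27 were lower and 0 higher (11.2% and 5.66% of all targets, 16.9% in all; on the deposited scale, with a shift of 1.22, 37 were higher), led by Atp5b (-1.15 ± 0.20), Cox8a (-1.04 ± 0.16) and Cox6a1 (-1.01 ± 0.15). Cox4i1, Atp5a1 and Uqcr11 were at -0.98, -0.84 and -0.82, and Atp5g3 and Atp5l at -0.78 and -0.75. Without region 3 of BMM-cKO females 23 were lower and 1 higher, and Atp5b was at -0.92. Cox8a and Cox6a1 were then at -0.82, Cox4i1 at -0.72, Atp5a1 at -0.65, Atp5g3 at -0.57, Uqcr11 at -0.53 and Atp5l at -0.52. Of the neuron markers 4 of 20 were lower in BMM-cKO males, and 3 of 10 microglia markers were higher. The part of these markers in the sex differences was not tested.

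Other mitochondrial genes were set beside the members, from lists drawn up with earlier results of these data known. Of all targets, 17.9% rose and 11.9% fell in MG-cKO females, and 27.8% rose and 25.7% fell in BMM-cKO males. Of the complex I genes, 29 of 35 rose in MG-cKO females, and 31 fell and 1 rose in BMM-cKO males. Ndufa13, an accessory subunit, was at 0.67 and -0.84 in these comparisons. Of 16 genes of the tricarboxylic acid cycle and pyruvate dehydrogenase, 14 rose and 7 fell respectively, with the malate dehydrogenase gene Mdh2 at 0.83 and -0.53. Of 10 genes for cytochrome c, carriers and channels, 9 rose and 6 fell, with Slc25a4, the ADP/ATP carrier of heart and brain, at 1.20 and -0.72. Of 43 mitochondrial ribosome genes, 15 rose and 1 fell in MG-cKO females, and 31 fell and 3 rose in BMM-cKO males, with Mrps5 at -0.86 and Mrpl51 at 0.59. Of 22 assembly factors of complexes II to V, 3 rose and 3 fell (Cmc1 at -0.30) in MG-cKO females, shares near those of all targets. In BMM-cKO males 9 rose and 5 fell, the latter again a share near that of all targets. Surf1 and Cox11, both needed to build complex IV, rose by 0.29 and 0.25 in MG-cKO females, and Cox11 was at -0.49 in BMM-cKO males where Pet117 was at 0.61. Of 4 tested regulators of mitochondrial biogenesis, 0 were called in MG-cKO females, and Yy1 (0.60) and Tfb1m (0.44) rose in BMM-cKO males. No mitochondrially encoded subunit was among the targets used here. The directions in BMM-cKO males are relative to the median target, as for the members.

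**Figure D5:**
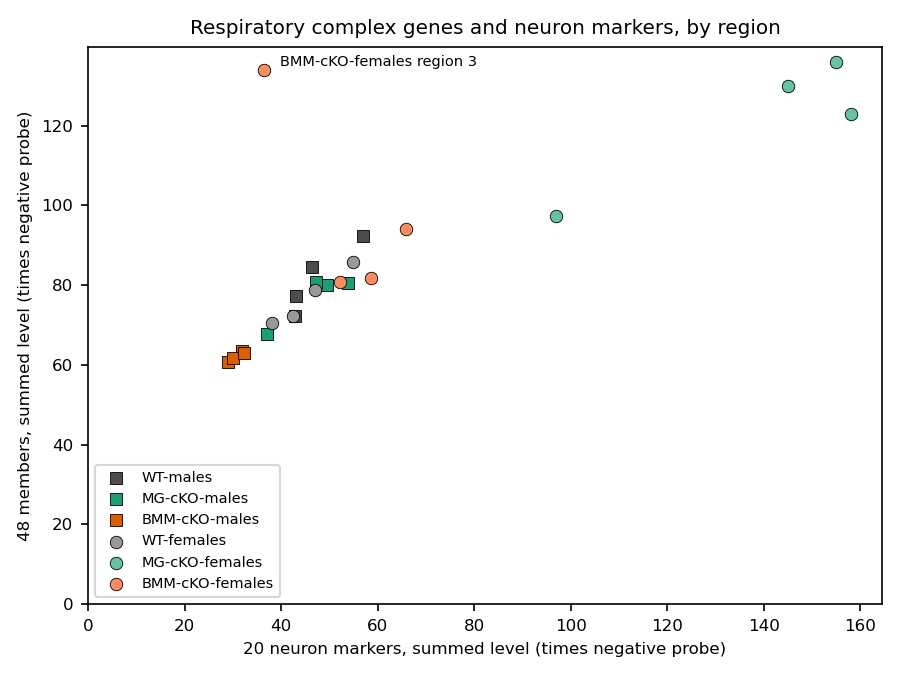
Summed ratio to the negative probe of the 48 members (vertical) and of 20 neuron markers (horizontal), with 1 point per region and groups by colour. BMM-cKO males lie lowest on both axes, at member sums of 60.7 to 63.6, and MG-cKO females highest on the neuron axis, while BMM-cKO-females region 3 joins a member sum of 134 to a neuron sum of 36.4.

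The plot of both sums sets the members beside neuron content in each region. The 4 BMM-cKO male regions had the 4 lowest values of both sums. The 4 MG-cKO female regions had the 4 highest neuron sums, and their member sums of 97.3 to 136 lay above those of all other regions except BMM-cKO-females region 3, at 134. No correlation is given, because the regions fall into separate clusters. The neuron sum does not separate kinds of neuron, and their markers did not all move alike. From WT to MG-cKO females, 16 of 20 neuron markers rose and 1 fell, while all 7 tested striatal markers fell. Mean ratios went from 1.06 to 6.64 for Slc17a7, 2.28 to 23 for Nrgn and 2.86 to 4.59 for Gad1, but from 2.63 to 1.45 for Gad2. Neuron content, kind of neuron and genotype differed between the same groups and cannot be told apart.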

How the data were processed

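Signal per probe target was deposited for 24 regions as 1 table. Per the file headers its rows are targets and its columns regions, and the counting and normalization software is not given in the sources used here. At least 99.98% of the deposited signal values of each region were within 0.01 of a whole multiple of 1 step. The geometric mean was equal within a group but differed between groups, from 105.92 to 388.2, so the authors' values carry factors set within each group and deposited levels cannot be compared between groups. The 60 per-region columns of other tables were not used. Groups came from the animal group label. In 36 pairs of regions of a group, the chi-square of recovered tags, themselves estimates, per degree of freedom was 1.09 to 11.7, above counting noise, so no region was counted as a duplicate.

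Targets were kept where the mean, after division by each region's geometric mean, exceeded the median target (9981 of 19962). Then limma 3.58.1 (R 4.3.3; lmFit, eBayes with trend) was run on log2(value + 1), centred on each region's median, with 1 coefficient per group and Benjamini-Hochberg adjustment over all targets at 0.05. Fold changes are on that scale and understate changes of low targets. Counting errors cover counting only, since PCR copies are not independent. The procedure was tested on simulated data in which all regions were drawn independently. That test therefore does not cover regions that share an animal or slice. Members and lists were chosen with earlier results of these data known, and all settings had been looked at in an exploratory run before the final one, without a change of the main fit. Named are the 3 members with the highest mean per complex, up to 8 called members with the largest change per comparison (up to 3 in the opposite direction), the restricted isoforms, called members that oppose others of their complex, and up to 3 called genes of each other list. Tables and plots were made with Python 3.11.15, pandas 2.3.3 and matplotlib 3.10.9. Alternatives were the deposited scale, division by or subtraction of the negative probe (targets above 1.5 times it, pseudocount 10% of it, chosen when the setting was coded), quantile normalization, no filter, a pseudocount of 10, only the compared groups, and each region left out.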

Additional observations from a re-analysis of the deposited data

Results flagged for a closer look

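In all, 4 values stood far from the other 3 regions of their group, among 90 groups of values examined. Chance alone would give about 1 in 20, a share near that seen. The 90 groups also overlap, because the sum and median hold the same members. The quantities examined (12 members, the members' median and sum, and the neuron sum) were chosen after exploring the data. Atp5b had a ratio of 2.35 in MG-cKO-males region 1, against 3.19 to 3.35 in the others, and of 7.33 in BMM-cKO-females region 3, against 3.52 to 4.07. The summed member ratio was 67.8 in MG-cKO-males region 1, against 80 to 80.9. The median member ratio was 1.87 in MG-cKO-females region 2, against 2.27 to 2.34.

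The genotype effects differed between males and females, by the interaction test of limma. For MG-cKO, 25 members were lower in the male effect, and the named ones were Atp5b (-1.38), Cox7b (-1.08), Cox5a (-1.07), Atp5a1 (-1.04), Cox4i1 (-0.92), Atp5d (-0.89), Sdha (-0.87) and Cox8a (-0.85), as log2 differences. For BMM-cKO, 27 members were lower, and the named ones were Atp5b (-1.35), Sdha (-1.05), Cox8a (-1.02), Cox4i1 (-1.01), Cox7b (-0.99), Atp5a1 (-0.99), Atp5g3 (-0.93) and Cox7a2 (-0.90). Without BMM-cKO-females region 3 the named ones lay between -1.12 and -0.71. Sex and scan cannot be told apart in these differences.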

How the results depend on the processing

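No paired analysis was possible because replicate numbers follow the order of deposition and pair nothing. The planned count test was not run, because the recovered tags did not pass the check that their use requires. Of 77 named member changes, 0 changed sign under any setting other than the deposited scale. There, 25 did, since the authors' factors move all targets of a comparison together, by 1.49 in BMM-cKO against WT males, -1.18 in MG-cKO against BMM-cKO males, 1.22 in BMM-cKO males against females and 0.34 in WT males against females (log2). BMM-cKO against WT males then gave 0.71 for Atp5b, 0.83 for Cox6a1, Cox7a2l and Cox8a, 0.85 for Cox7a2, 0.86 for Cox4i1, 0.89 for Sdha and 0.90 for Atp5l. MG-cKO against BMM-cKO males gave -0.46 for Cox6a1, -0.50 for Atp5b, -0.63 for Cox4i1, -0.64 for Cox8a, -0.66 for Cox7a2l, -0.67 for Sdha, -0.69 for Cox7a2 and -0.72 for Atp5a1. BMM-cKO males against females gave 0.06 for Atp5b, 0.16 for Cox8a, 0.19 for Cox6a1, 0.23 for Cox4i1, 0.36 for Atp5a1, 0.39 for Uqcr11, 0.42 for Atp5g3 and 0.46 for Atp5l, and WT males against females 0.05 for Atp5j2. Counts higher and lower on that scale were 17 and 0 (MG-cKO against WT males), 41 and 0 (BMM-cKO against WT, in each sex), 0 and 41 (MG-cKO against BMM-cKO males), 1 and 9 (females), 31 and 0 (WT males against females), 5 and 9 (MG-cKO), 37 and 0 (BMM-cKO), and 16 and 0 (BMM-cKO interaction).

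Quantile normalization gave 1 higher in MG-cKO against WT males, 3 in BMM-cKO against WT males, 15 in MG-cKO against WT females, 2 lower in MG-cKO against BMM-cKO males, 2 higher in MG-cKO against BMM-cKO females, 2 lower in WT and 7 lower in MG-cKO males against females, 14 lower in the MG-cKO interaction and 1 higher in the BMM-cKO interaction. Subtracting the negative probe tested only members averaging above 1.5 times it, 18 from 1.5 to 2 and 13 above 2, in place of 41. It gave 3 higher in MG-cKO against BMM-cKO females, 12 higher in WT and 12 lower in MG-cKO males against females. The lower members of MG-cKO against BMM-cKO, Uqcrfs1 in males and Cox6b2 in females, averaged 1.2 and 1.26. They were therefore not tested in this setting, and its lower counts of 0 there say nothing about them. Dividing by the negative probe gave 0 higher in BMM-cKO against WT males and 4 higher in WT males against females. No filter gave 2 and 0 higher in BMM-cKO against WT males and females, and 2 lower in WT males against females. Only the compared groups gave 2 and 0 higher in BMM-cKO against WT males and females, 28 higher in MG-cKO against BMM-cKO males, 1 higher and 0 lower in females, 2 lower in WT and 1 higher in MG-cKO males against females. The cause of these changes was not tested. Females compared on 1 plate, without WT region 1, gave 26 higher in MG-cKO and 1 in BMM-cKO against WT. A pseudocount of 10 moved no count by more than 1.5 times.

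Leaving out 1 region at a time, the higher counts ranged from 0 to 1 in BMM-cKO against WT males, 0 to 4 in BMM-cKO against WT females, 24 to 27 in MG-cKO against WT females, 14 to 18 in MG-cKO against BMM-cKO males, 4 to 27 in females (4 without BMM-cKO region 2 or MG-cKO region 3, 5 without BMM-cKO region 1 or MG-cKO region 4, 8 without MG-cKO region 1, 27 without BMM-cKO region 3) and 3 to 8 in WT males against females (3 without male region 2 or female region 2 or 4). The lower counts ranged from 22 to 25 in BMM-cKO against WT males, 0 to 1 in MG-cKO against BMM-cKO males, in females and in WT males against females, 22 to 31 in MG-cKO males against females, 23 to 27 in BMM-cKO males against females (higher 0 to 1), 20 to 27 in the MG-cKO and 24 to 28 in the BMM-cKO interaction. At an estimated 128 to 682 tags per median member and ratios near 1, changes of members near background smaller than that counting error were not detectable.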
